A study of Mus musculus with 45 samples.

Results

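Genes of the NRF2 antioxidant pathway were examined in mouse hearts after inhalation of cigarette smoke. The set held Nfe2l2, which encodes the transcription factor NRF2, its inhibitor Keap1, and 8 genes known as NRF2 targets: Gclm, Gclc, Slc7a11, Gsr, Txnrd1, Srxn1, Nqo1 and Hmox1. Its members were the probe sets whose annotation held 1 gene symbol and whose symbol was among these 10 names, which gave 18 of 22690 probe sets and 10 of 12394 genes. Several probe sets measured Srxn1 (4), Txnrd1 (3), Gclc, Gsr and Keap1 (2 each), and each gene was represented by its brightest set, judged by the mean of the 45 arrays. Of the 10 genes, 9 had a mean above the lowest 25% of genes and were tested. Slc7a11 did not.

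NRF2 is held in the cytoplasm by KEAP1, which passes it to a ubiquitin ligase for degradation. Oxidants and electrophiles modify cysteines of KEAP1, and NRF2 then enters the nucleus, pairs with a small MAF protein and binds antioxidant response elements near genes for glutathione synthesis, thioredoxin reduction, quinone detoxification and heme breakdown. NRF2 is mainly controlled at the level of the protein, so the mRNA of Nfe2l2 is no measure of its activity.

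The core of the antioxidant response element was searched as TGACNNNGC on both strands of the 250 bases before each start site in the RefSeq promoters (GRCm38.p6). The table held a promoter for 7 members and none for Gclc, Gsr and Hmox1, and 3 of the 7 genes had a match (42.9%), beside 1049 of the 7482 tested genes with a promoter. The matches are shown because they lie before the gene that changed most often under smoke, Gclm, before Txnrd1, and before Nfe2l2 itself. Each is printed 5′ to 3′ with 10 bases on either side and the matching letters in capitals.
Nfe2l2: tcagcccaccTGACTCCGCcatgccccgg
Gclm: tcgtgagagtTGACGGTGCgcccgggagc
Txnrd1: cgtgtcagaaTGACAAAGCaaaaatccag
The Nfe2l2 window was chr2:75704885-75704913 on the minus strand, the strand of the gene, with the match 240 bases before the start. The Gclm window was chr3:122245413-122245441 on the minus strand, opposite to the gene. It lies 134 bases before the start used in the promoter table, which is downstream of the first base of the annotated gene given below. The Txnrd1 window was chr10:82859104-82859132 on the minus strand, opposite to the gene, 92 bases before one of its start sites. A longer form, these letters followed by an A, whose matches are all matches of the shorter form too, was found before 1 of the 7 genes, Txnrd1, and before 2.67% of tested genes. A match in letters is a description and does not show binding.

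Total RNA from the heart of each of 45 male C57BL/6 mice was hybridised to its own Affymetrix array. Regular weight (RW) mice took about 5 kcal% of their diet as fat. Mice made obese by diet (DIO) were given 60 kcal% when 6 weeks old and had eaten it for 9 weeks when exposure began. At 15 weeks of age, mice of both diets were placed in nose-only inhalation of filtered air (sham control, SC), mainstream smoke (MS) or sidestream smoke (SS), for 5 h daily in 8 exposures spread over 2 weeks, and were killed on the day after. Air was given to 8 RW-SC and 8 DIO-SC mice, mainstream smoke to 8 RW-MS and 6 DIO-MS mice, and sidestream smoke to 7 RW-SS and 8 DIO-SS mice. The growth protocol mentions an LPS exposure where the titles and treatment protocol name cigarette smoke, and the latter were followed. Arrays of a group are labelled biological replicates, so p-values measure the spread between these mice. Values are RMA levels on the log2 scale, and differences are log2 differences of group means with the standard error of limma. Adjusted p-values are Benjamini-Hochberg values from limma over 9295 genes, with a threshold of 0.05.

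The samples carried heart muscle RNA, since 13 of 13 cardiomyocyte markers lay above the filter and their mean level was 13.76 to 13.90 on every array. Some arrays stood apart in markers of other tissues. The mean of 6 lung markers was 5.61 to 6.22 on RW-SC 7 and 8, DIO-SC 5 and DIO-SS 8 and at most 4.85 elsewhere, with Scgb1a1 reaching 11.56. The other lung markers did not stand apart there. The mean of the 2 tested ones, Sftpc and Sftpb, was 5.56 to 5.67 on these arrays and 5.26 to 5.88 over all arrays. Sftpa1, Sftpd and Cldn18 reached at most 4.71, 4.80 and 5.08 on any array. The mean of the 2 tested liver markers was 6.17 on DIO-SC 6 and at most 5.30 elsewhere. Leaving out these 5 arrays in turn ended 1 call of a member, that of Txnrd1 in DIO-SS without DIO-SC 6. Atrial markers had a mean of 6.47 to 7.10 on RW-MS 2, 6 and 8 and of 9.45 to 10.91 on the other arrays. Red cell markers were represented by 4 tested genes (Alas2, Slc4a1, Bpgm and Trim10), while Epb42, Rhag and Kel lay under the filter at 4.90. The mean of the 4 was 6.58 to 6.77 in RW-SC and reached 7.91 on RW-SS 2 and 8.28 on RW-SS 4. For Gapdh, the 3′ probe set exceeded the 5′ one by 0.94 on RW-SS 7 and by at most 0.40 on the other arrays, a sign of RNA quality. In a whole heart, fewer cells of a type and less RNA per cell cannot be told apart.

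Of the 9 tested members, 1 rose in RW-MS, 4 in RW-SS, 0 in DIO-MS and 4 in DIO-SS against air. Of all genes, 6.86%, 24.6%, 4.55% and 31.8% were called in these comparisons. The largest differences of members lay in regular weight mice. Gclm, the regulatory subunit of glutamate-cysteine ligase, rose under mainstream and sidestream smoke in RW mice (1.47-fold and 1.46-fold) and under sidestream smoke in DIO mice (1.17-fold). Hmox1, which encodes heme oxygenase 1, rose 1.55-fold in RW-SS. Nqo1, a quinone reductase, rose in RW-SS (1.26-fold) and DIO-SS (1.19-fold).

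Under mainstream smoke in RW mice, 1 of 9 members passed the threshold, Gclm, and 6.86% of all genes did (2.86% higher). The median difference of the members was 0.09, against 0.0015 for all genes. The 9 differences were positive, and 4 members (Gclm, Hmox1, Keap1 and Nfe2l2) had an unadjusted p under 0.05. Sidestream smoke in RW mice raised 4 of 9 members (Gclc, Gclm, Hmox1 and Nqo1), against 24.6% of all genes called in either direction and 11.7% called higher. The member median was 0.13 and that of all genes 0.0004.

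In DIO mice, limma called 0 of 9 members under mainstream smoke, 1 of them (Nqo1) had an unadjusted p under 0.05, and 4.55% of all genes were called. With array weights 1 member was called, beside 7.68% of all genes, and with the mean of probe sets 1, beside 3.31%. Under sidestream smoke 4 of 9 members rose in DIO mice (Gclm, Nqo1, Srxn1 and Txnrd1), beside 31.8% of all genes called and 23.0% called higher. The member median was 0.07 and the median of all genes 0.04. With a further quantile normalization 1 of these 4 calls was left, that of Srxn1. The 2 smokes of a diet share their air controls, so their results are not independent.

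**Figure D1:**
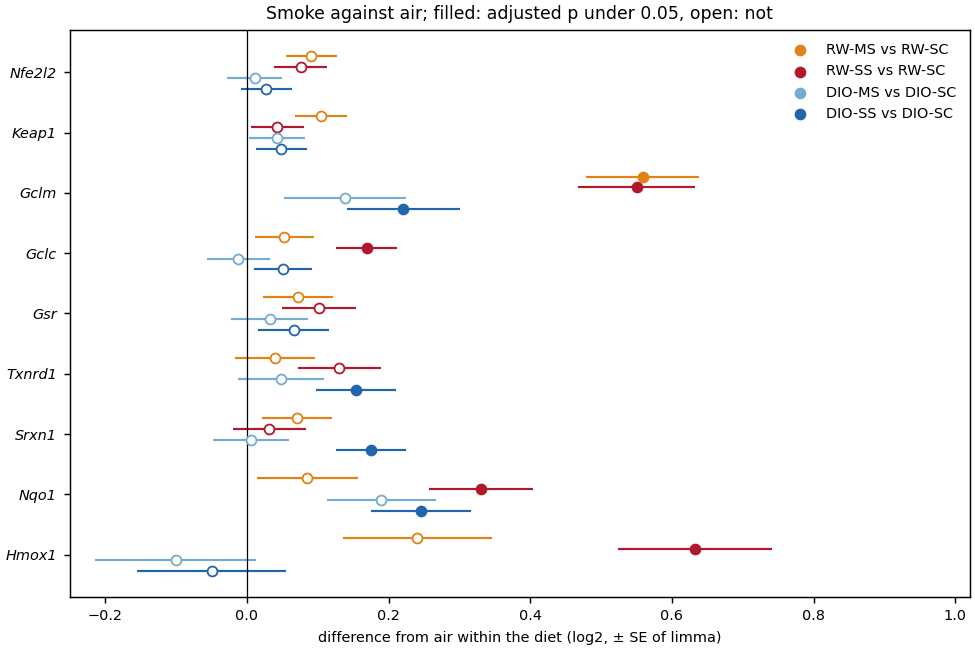
Log2 difference from air within the diet (horizontal axis, with the standard error of limma) for the 9 tested members (vertical axis) in 4 comparisons, with filled points for adjusted p under 0.05 and open points otherwise. Gclm stands at 0.56 and 0.55 in RW mice and at 0.14 and 0.22 in DIO mice, and Hmox1 at 0.63 in RW-SS and below 0 in both DIO groups.

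Gene positions below are those of RefSeq on GRCm38.p6. Nfe2l2 (probe set 1416543_at, gene at chr2:75675513-75704663) had a mean level of 9.79 over all arrays. The lowest, median and highest levels were 9.57, 9.68 and 9.70 in RW-SC and 9.74, 9.84 and 9.95 in DIO-SC. Every DIO-SC array lay above every RW-SC array, a separation that 4.05% of all genes showed in this comparison. Nfe2l2 was higher by 0.18 ± 0.04 in DIO-SC than in RW-SC (adjusted p = 0.000308). It was also higher in DIO-SS than in RW-SS, by 0.13 ± 0.04 (adjusted p = 0.00541), a call that ended after a further quantile normalization (0.08, adjusted p = 0.0978). Under smoke its differences from air were 0.09 (adjusted p = 0.126) in RW-MS, 0.08 (0.129) in RW-SS, 0.011 (0.926) in DIO-MS and 0.027 (0.589) in DIO-SS. The RW-MS difference passed after a further quantile normalization (0.11, adjusted p = 0.0478). The RW-SS difference passed with that normalization (0.12, adjusted p = 0.0145), with array weights (0.09, 0.0421) and without RW-SS 7 (0.10, 0.0444).

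Keap1 (1450746_at, chr9:21229730-21239332), the sensor that targets NRF2 for degradation, passed in none of the 11 comparisons by this probe set. The differences from air were 0.10 ± 0.04 in RW-MS (adjusted p = 0.0724, unadjusted p = 0.00615), 0.04 in RW-SS, 0.04 in DIO-MS and 0.05 in DIO-SS. RW-SC arrays lay within 7.82 to 7.90, and RW-MS arrays within 7.84 to 8.08, so these groups overlapped. With array weights, a further quantile normalization or without RW-MS 7, the RW-MS difference passed (adjusted p = 0.0215, 0.0364 and 0.0253). With the mean of its 2 probe sets Keap1 passed in DIO-MS (0.14, adjusted p = 0.0485) and DIO-SS (0.15, 0.00257).

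Gclm (1418627_at, chr3:122245487-122267215) had the most calls of the members. Its lowest, median and highest levels were 8.30, 8.45 and 8.57 in RW-SC, 8.79, 8.98 and 9.20 in RW-MS, and 8.57, 8.96 and 9.46 in RW-SS. Every RW-MS array was above every RW-SC array, and the RW-SS arrays also began just above the highest RW-SC array. Such separation was seen for 1.11% of all genes in RW-MS and 5.2% in RW-SS.

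The rise of Gclm was 0.56 ± 0.08 in RW-MS (adjusted p = 6.53e-06) and 0.55 ± 0.08 in RW-SS (adjusted p = 3.57e-06). The RW-SS arrays were more widely spread, with a standard deviation of 0.33 against 0.14 in RW-MS and 0.08 in RW-SC. Without RW-MS 2, 6 and 8, the arrays low in atrial markers, the mainstream difference was 0.57 (adjusted p = 0.000162).

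In DIO mice Gclm started from 8.09, 8.31 and 8.48 in DIO-SC. It reached 8.34, 8.43 and 8.57 in DIO-MS and 8.43, 8.48 and 8.76 in DIO-SS. These 3 groups overlapped. The difference from air was 0.14 ± 0.09 in DIO-MS (adjusted p = 0.422, 95% interval -0.04 to 0.31) and 0.22 ± 0.08 in DIO-SS (adjusted p = 0.0306). The DIO-SS call was lost without DIO-SC 3 (adjusted p = 0.0711), DIO-SC 8 (0.0546), DIO-SS 4 (0.0788) or DIO-SS 6 (0.0506), and after a further quantile normalization (0.16, adjusted p = 0.126).

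Gclc (1455959_s_at, chr9:77754535-77794489) encodes the catalytic subunit of the same ligase. Its lowest, median and highest levels were 7.15, 7.24 and 7.35 in RW-SC, 7.19, 7.29 and 7.40 in RW-MS, and 7.32, 7.36 and 7.56 in RW-SS. Of the 7 RW-SS arrays 4 lay above the highest RW-SC array, and the other 3 lay just under it. Gclc rose by 0.17 ± 0.04 in RW-SS (adjusted p = 0.00314) and differed by 0.05 in RW-MS (adjusted p = 0.508). With the mean of its 2 probe sets the RW-SS difference was 0.10 (adjusted p = 0.0608), and with the red cell mean as a covariate 0.14 (adjusted p = 0.085).

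Levels of Gclc were 6.96, 7.06 and 7.25 in DIO-SC, 6.94, 7.07 and 7.19 in DIO-MS, and 7.04, 7.14 and 7.24 in DIO-SS. The obese groups lay lower than the regular weight group of the same exposure, and the DIO-SS and RW-SS arrays did not overlap, as for 7.21% of all genes. Smoke differences in DIO mice were -0.012 (adjusted p = 0.931) for mainstream and 0.05 (0.356) for sidestream smoke, and the latter was 0.10 (0.0498) with the mean of the probe sets.

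Slc7a11 (1420413_at, chr3:50364936-50499087), the cystine carrier that feeds glutathione synthesis, was near the bottom of the array's range. Its levels ran from 2.86 to 3.45 over all arrays, with medians of 2.98 to 3.16 in the 6 groups, and it was not tested. Gsr (1421817_at, chr8:33653238-33698162), which reduces oxidised glutathione, passed in none of the 11 comparisons. Its levels lay within 6.96 to 7.38 and all groups overlapped. The differences of Gsr from air were 0.07 (adjusted p = 0.445) under mainstream and 0.10 (0.144) under sidestream smoke in RW mice, and 0.03 (0.83) and 0.07 (0.32) in DIO mice. With the mean of its 2 probe sets Gsr passed in DIO-SS (0.12, adjusted p = 0.023).

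Txnrd1 (1421529_a_at, chr10:82833951-82897724), the cytosolic thioredoxin reductase, rose in DIO-SS by 0.15 ± 0.06 (adjusted p = 0.0332). Its lowest, median and highest levels were 7.80, 7.85 and 7.91 in DIO-SC and 7.92, 8.02 and 8.04 in DIO-SS. These groups did not overlap, as for 7.17% of all genes. In RW-SS the levels ran from 7.77 to 8.39 with a median of 8.10, and the difference of 0.13 did not pass (adjusted p = 0.0955). It passed without RW-SS 2 (0.18, adjusted p = 0.0184), the lowest array of the group, without RW-SS 2 and 4 (0.18, 0.0324), after a further quantile normalization (0.17, 0.0185) and with the macrophage covariate (0.16, 0.0231). Without RW-SS 7, the highest array and the one with the wide Gapdh difference, it was 0.07 (adjusted p = 0.323). The DIO-SS call ended without DIO-SC 6 (adjusted p = 0.0529), DIO-SC 7 (0.0536) or DIO-SS 5 (0.0564), and after a further quantile normalization (0.09, 0.24). It also ended with the mean of 3 probe sets, where the sign turned (-0.04, 0.492). The other 2 sets were much dimmer, with mean levels of 5.14 and 3.33 against 7.95 for 1421529_a_at. The level of 3.33 lay under the filter at 4.90.

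Srxn1 (1426875_s_at, chr2:152105524-152111376), which restores overoxidised peroxiredoxins, rose in DIO-SS by 0.18 ± 0.05 (adjusted p = 0.00648). Levels were 6.52, 6.65 and 6.77 in DIO-SC and 6.66, 6.82 and 7.02 in DIO-SS, with overlap. In RW mice the differences were 0.07 under mainstream smoke (adjusted p = 0.45) and 0.03 under sidestream smoke (adjusted p = 0.695). With the mean of its 4 probe sets the DIO-SS difference was 0.0074 (adjusted p = 0.886), while the RW-SS difference was 0.15 and passed (adjusted p = 0.000732). The 4 sets had mean levels of 6.76, 6.52, 5.55 and 4.35, the last under the filter at 4.90.

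Nqo1 (1423627_at, chr8:107388225-107403205) passed under sidestream smoke in both diets. Its lowest, median and highest levels were 7.77, 8.19 and 8.34 in RW-SC, 7.84, 8.26 and 8.42 in RW-MS, and 8.30, 8.50 and 8.72 in RW-SS. RW-SS arrays lay at the top of the RW-SC range or above it. The rise in RW-SS was 0.33 ± 0.07 (adjusted p = 0.000876), and the RW-MS difference was 0.09 ± 0.07 (adjusted p = 0.537).

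The obese groups had Nqo1 levels of 7.85, 8.12 and 8.30 in DIO-SC, 8.12, 8.27 and 8.40 in DIO-MS, and 8.25, 8.33 and 8.40 in DIO-SS. DIO-SS arrays were the most tightly grouped of the 6 groups, with a standard deviation of 0.06, and overlapped the top of DIO-SC. The rise in DIO-SS was 0.25 ± 0.07 (adjusted p = 0.00752), and 0.18 (adjusted p = 0.0646) after a further quantile normalization. In DIO-MS the difference was 0.19 ± 0.08 (adjusted p = 0.157), and 0.20 with array weights, which passed (adjusted p = 0.0415). The sidestream effects of the 2 diets on Nqo1 differed by -0.09 ± 0.10 (DIO minus RW, adjusted p = 0.549, 95% interval -0.29 to 0.12).

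Hmox1 (1448239_at, chr8:75093618-75100593), which releases iron and biliverdin from heme, varied most in RW-SS. Its lowest, median and highest levels were 6.39, 6.58 and 6.77 in RW-SC, 6.54, 6.85 and 7.02 in RW-MS, and 6.60, 7.22 and 7.74 in RW-SS. The 7 RW-SS arrays, numbered 1 to 7, had 6.60, 7.53, 7.04, 7.62, 7.22, 6.74 and 7.74. RW-SS 1 and 6 thus lay inside the range of air, and the other 5 lay above every RW-SC and RW-MS array.

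Hmox1 rose by 0.63 ± 0.11 in RW-SS (adjusted p = 3.17e-05) and differed by 0.24 ± 0.11 in RW-MS (adjusted p = 0.176). With array weights the RW-MS difference was 0.30 and passed (adjusted p = 0.0337). The standard deviation was 0.44 in RW-SS and 0.14 in RW-SC. Without RW-SS 7, the array with the wide Gapdh difference and the highest Hmox1 level, the RW-SS difference was 0.54 (adjusted p = 0.000164).

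Hmox1 levels in obese mice were 6.53, 6.66 and 6.99 in DIO-SC, 6.46, 6.65 and 6.72 in DIO-MS, and 6.45, 6.66 and 6.85 in DIO-SS, so these groups shared 1 range. The differences from air were -0.10 ± 0.11 in DIO-MS (adjusted p = 0.71) and -0.05 ± 0.11 in DIO-SS (adjusted p = 0.745, 95% interval -0.26 to 0.16).

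**Figure D2:**
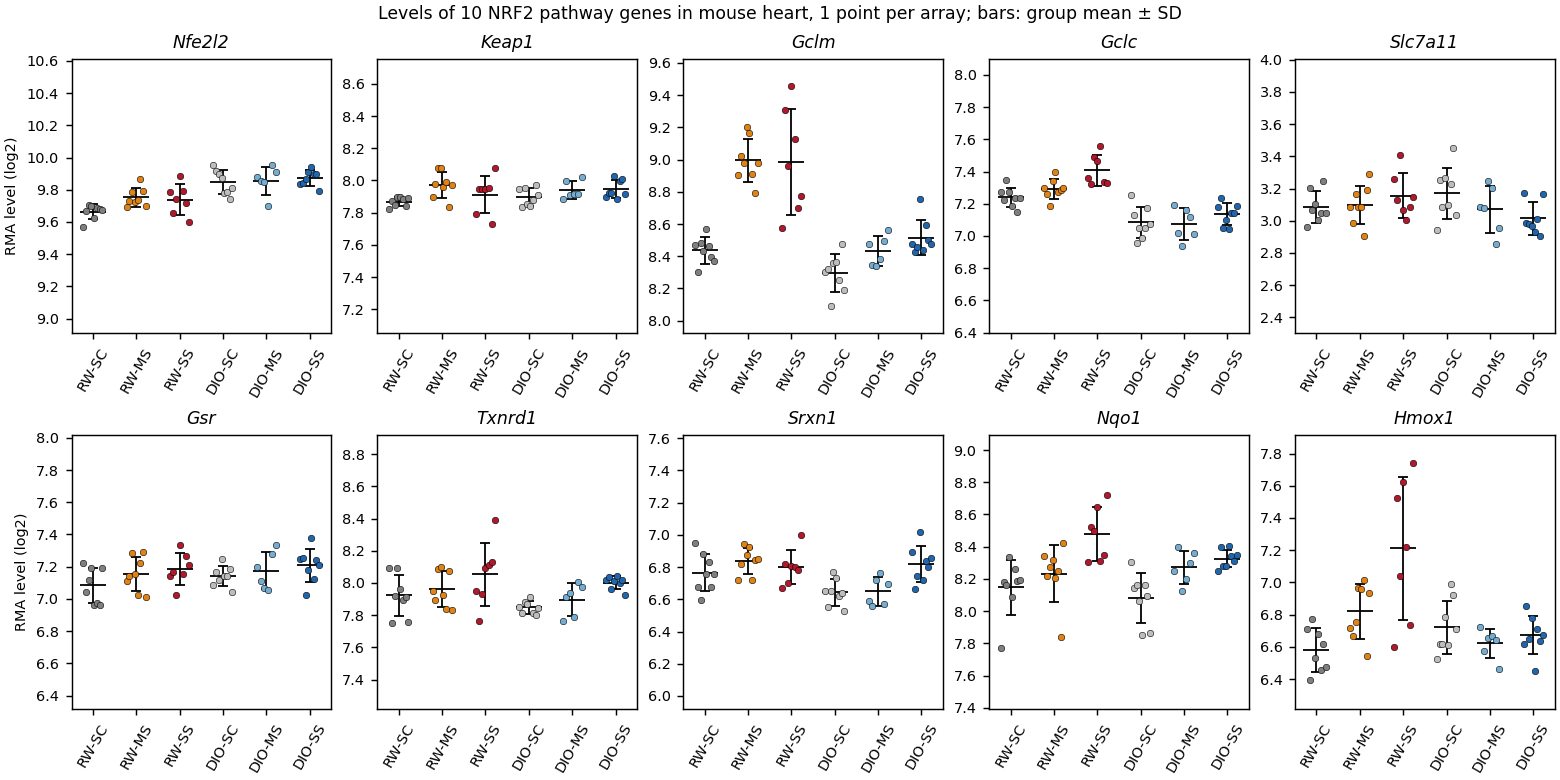
RMA level on the log2 scale (vertical axes, each spanning the same range of log2 units) of the 10 members in the 6 groups, with 1 point per array and bars for the group mean and SD. Gclm in RW-MS lies wholly above RW-SC, Hmox1 in RW-SS spreads from 6.60 to 7.74, and Slc7a11 stays between 2.86 and 3.45.

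The response to sidestream smoke was compared between diets by an interaction term, in which a negative value means a smaller effect in obese mice. Of 9 members, 2 passed with negative values, Hmox1 and Gclm, beside 28.4% of all genes (10.1% lower). Hmox1 responded less in DIO mice by 0.68 ± 0.15 (log2 difference of effects -0.68, adjusted p = 0.00123), and Gclm by 0.33 ± 0.11 (-0.33, adjusted p = 0.0285). The Gclm call was lost without RW-SS 2 (-0.28, adjusted p = 0.0594) or RW-SS 4 (-0.25, 0.067).

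For mainstream smoke the same interaction gave 0 calls among 9 members by limma, 2 with an unadjusted p under 0.05 (Gclm and Hmox1), and 0.226% of all genes called. Gclm had -0.42 ± 0.12 (unadjusted p = 0.00085, adjusted p = 0.135) and Hmox1 -0.34 ± 0.15 (adjusted p = 0.39). Gclm was called with array weights (-0.49, adjusted p = 0.0239) and with only the groups compared (-0.42, 0.0112).

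Red cell transcripts moved with these results. In RW-SS 4 of 4 tested red cell markers rose, beside 24.6% of all genes called and 11.7% called higher. The list mean was 6.97 to 8.28 in RW-SS, 6.76 to 7.58 in RW-MS, 6.58 to 6.77 in RW-SC and 6.51 to 7.18 in DIO-SS. The 2 arrays with the most red cell RNA, RW-SS 4 and 2, also had the highest Gclm levels (9.46 and 9.31) and Hmox1 levels of 7.62 and 7.53. RW-SS 7, with the highest Hmox1 level, had the lowest red cell mean of its group.

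With the red cell mean as a covariate, the RW-SS difference was 0.36 for Gclm (adjusted p = 0.00944), 0.46 for Hmox1 (0.0181) and 0.34 for Nqo1 (0.0143). The mainstream difference of Gclm in RW mice was then 0.44 (adjusted p = 0.000526). The sidestream interaction stayed past the threshold for Hmox1 (-0.55, adjusted p = 0.0162) but not for Gclm (-0.17, adjusted p = 0.275). The red cell means of RW-SC (6.58 to 6.77) and RW-SS (6.97 to 8.28) did not overlap. Sidestream smoke and red cell content therefore cannot be told apart by this fit, for either gene. Of the RW-MS arrays only RW-MS 2 (6.76) lay within the RW-SC range, and the others lay above it, up to 7.58. The fit thus hardly separates mainstream smoke from red cell content either. Leaving out RW-SS 2 and 4 gave a RW-SS difference of 0.39 for Gclm (adjusted p = 0.000119) and 0.49 for Hmox1 (0.00159), and interactions of -0.17 (0.178) and -0.54 (0.00792).

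**Figure D3:**
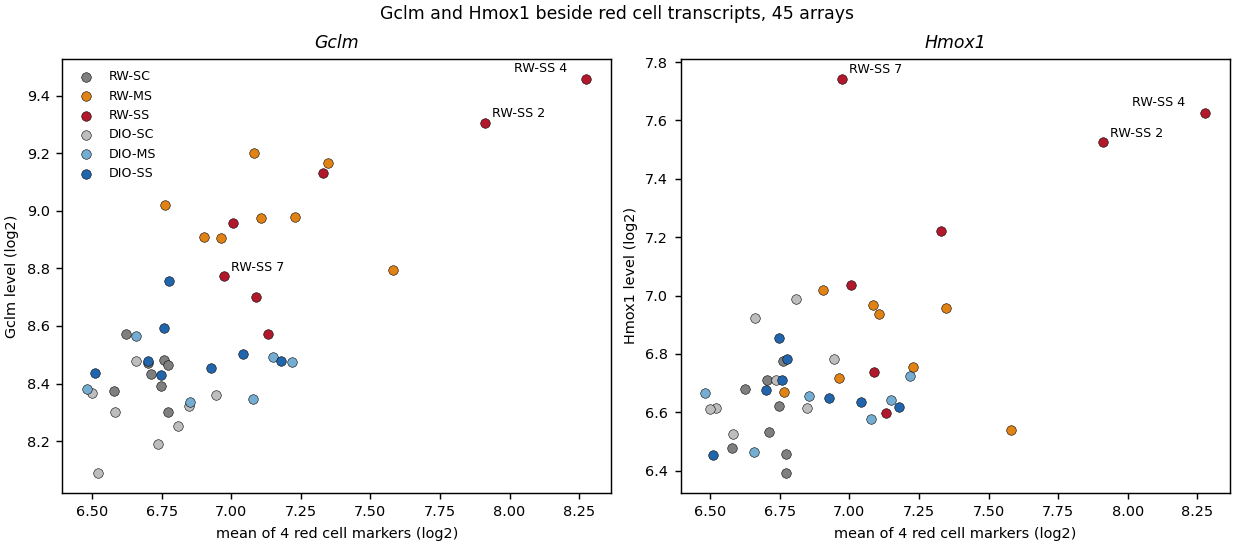
Level of Gclm (left) and Hmox1 (right) on the log2 scale against the mean of 4 red cell markers on the same array, coloured by group, for 45 arrays. RW-SS 2 and 4 lie far to the right at 7.91 and 8.28, and RW-SS 7 has the highest Hmox1 level (7.74) at a red cell mean of 6.97.

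The diet itself was compared within each exposure. In air 2 of 9 members passed, Nfe2l2 higher and Gclc lower in DIO mice, beside 20.3% of all genes, and the member median was -0.07 against -0.02 for all genes. Gclc was lower by 0.16 ± 0.04 on the log2 scale (difference -0.16, adjusted p = 0.00576). Of 5 tested fat cell markers 1 was called, lower in DIO mice. Their list mean was 6.20 to 9.78 in RW-SC and 5.92 to 8.35 in DIO-SC, so the groups overlapped. With that mean as a covariate the differences were 0.17 for Nfe2l2 (adjusted p = 0.00117) and -0.14 for Gclc (adjusted p = 0.015).

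Under mainstream smoke 3 of 9 members were lower in DIO mice, Gclm, Gclc and Srxn1, beside 10.6% of all genes called in either direction and 5.45% called lower. The differences were -0.56 ± 0.09 for Gclm (adjusted p = 1.05e-05), -0.22 ± 0.04 for Gclc (0.000598) and -0.19 ± 0.05 for Srxn1 (0.0165). No DIO-MS array reached the lowest RW-MS array for Gclm, as for 2.38% of all genes. The Srxn1 call was lost without DIO-MS 2 (adjusted p = 0.0541) and with the mean of its probe sets (-0.02, adjusted p = 0.795).

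Under sidestream smoke 4 of 9 members passed, Gclm, Gclc and Hmox1 lower and Nfe2l2 higher in DIO mice, beside 32.6% of all genes. The differences were -0.47 ± 0.08 for Gclm (adjusted p = 3.58e-05), -0.27 ± 0.04 for Gclc (5.39e-06) and -0.54 ± 0.11 for Hmox1 (0.000231). Markers of other cells moved in the same comparison, with 7 of 10 endothelial and 6 of 10 fibroblast markers higher and 4 of 4 red cell markers lower in DIO-SS. Fibroblast markers had a mean of 9.36 to 9.87 in DIO-SS and 9.06 to 9.60 in RW-SS, and their part and that of endothelial markers were not tested. Nqo1 differed by -0.15 (adjusted p = 0.106) and passed after a further quantile normalization (-0.22, 0.0208) and with the adipocyte covariate (-0.20, 0.0214). These comparisons share their arrays with those of smoke against air.

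The 2 smokes were also set against each other. In RW mice 2 of 9 members, Hmox1 and Nqo1, were higher under sidestream than mainstream smoke, beside 5.82% of all genes (2.19% higher). Hmox1 was higher by 0.39 ± 0.11 (adjusted p = 0.0257). For Nqo1 the difference was 0.25 ± 0.07 (adjusted p = 0.0385). Gclm differed by -0.0082 ± 0.08 (adjusted p = 0.968, 95% interval -0.17 to 0.16). Neither call was stable: without RW-MS 2 the adjusted p was 0.0577 for Hmox1 and 0.0648 for Nqo1, and without RW-SS 2, 4 or 7 it was 0.0673, 0.073 and 0.086 for Hmox1 and 0.0644, 0.0852 and 0.103 for Nqo1. The Nqo1 call was also lost without RW-MS 5 (0.0508), RW-MS 7 (0.074) or RW-SS 3 (0.0527). With only the RW-SS and RW-MS arrays in the fit, adjusted p was 0.261 and 0.206.

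In DIO mice limma called 0 of 9 members between the smokes, 1 (Srxn1, 0.17, adjusted p = 0.0634) had an unadjusted p under 0.05, and 2.55% of all genes were called. With array weights 1 member was called, but 21.1% of all genes were then called. Without DIO-MS 6 or DIO-SS 2 also 1 member was called.

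Other probe sets of the members did not always follow the set that stood for the gene. They are given with p-values adjusted over 20393 probe sets, of which 20% were called in RW-SS, 1.94% in DIO-MS, 23.9% in DIO-SS and 13.7% for the diet in air. Srxn1 differed most: 1419942_at rose by 0.28 in RW-SS (adjusted p = 0.00107), was higher by 0.24 in DIO-SC than in RW-SC (0.00448) and fell in DIO-SS (-0.25, 0.0019), opposite to the rise of 1426875_s_at there. The probe set 1425351_at of Srxn1, with a mean level of 4.35 under the filter at 4.90, rose by 0.20 in RW-SS (adjusted p = 0.0434).

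A second Keap1 probe set, 1450747_at, was lower in DIO-SC than in RW-SC (-0.24, adjusted p = 0.00294) and rose in DIO-MS (0.24, 0.023) and DIO-SS (0.26, 0.000682). The second Gclc set, 1424296_at, was lower in DIO-SC than in RW-SC by a wider margin (-0.34, adjusted p = 6.12e-05) and differed by 0.03 in RW-SS (adjusted p = 0.794). For Gsr, 1421816_at rose by 0.17 in DIO-SS (adjusted p = 0.0118). The other 2 sets of Txnrd1, with mean levels of 5.14 and 3.33, both had -0.14 in DIO-SS (adjusted p = 0.189 and 0.181). Which transcripts each set measures was not tested.

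**Figure D4:**
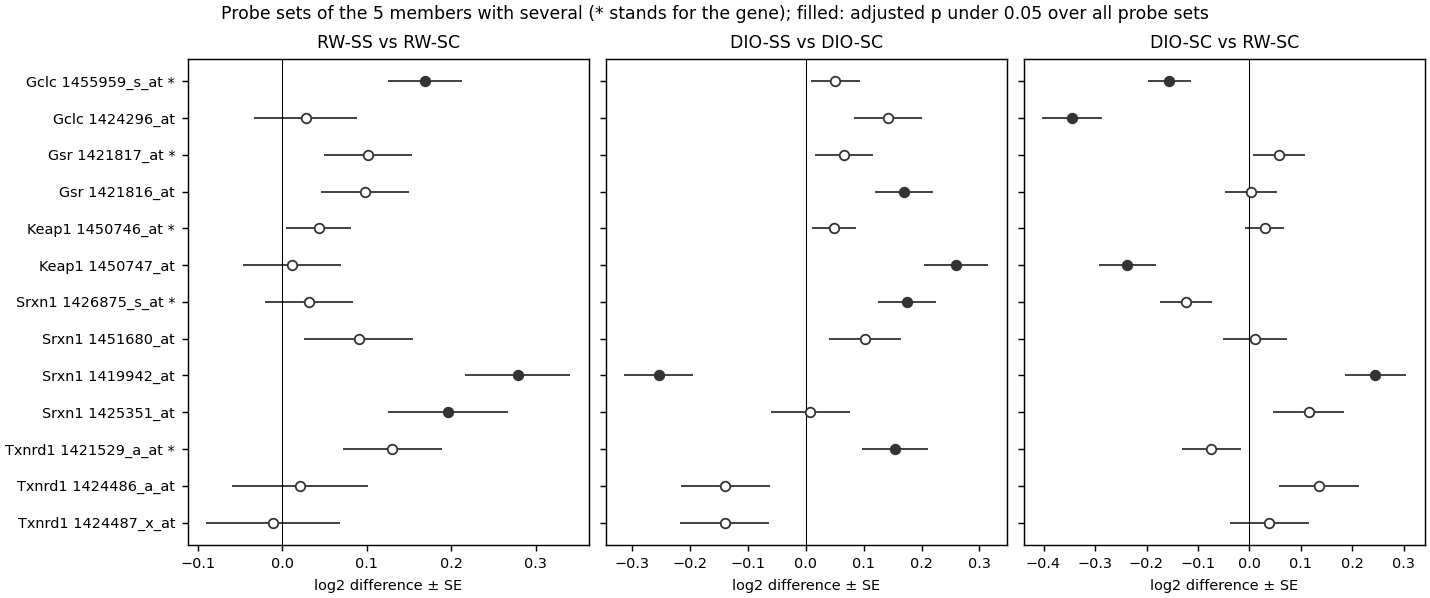
Log2 difference with the standard error of limma (horizontal axes) for the 13 probe sets of the 5 members with several, in 3 comparisons, with filled points for adjusted p under 0.05 over all probe sets and a star for the set that stood for its gene. Srxn1 1419942_at points to 0.28 in RW-SS and to -0.25 in DIO-SS, where 1426875_s_at points to 0.18.

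Other parts of the KEAP1-NRF2 switch were followed in a list of 13 tested genes. In RW-MS 3 rose and 0 fell, in RW-SS 4 rose and 2 fell, in DIO-MS 1 rose and 0 fell, and in DIO-SS 6 rose and 0 fell. Of all genes, 6.86%, 24.6%, 4.55% and 31.8% were called in these comparisons, and 23.0% were called higher in DIO-SS. The list's median was 0.05, 0.04, 0.07 and 0.11, against 0.0015, 0.0004, 0.011 and 0.04 for all genes. Sqstm1, which encodes p62, an autophagy receptor that competes for KEAP1, rose by 0.43 in RW-MS (adjusted p = 1.54e-05), 0.50 in RW-SS (5.17e-07) and 0.33 in DIO-SS (0.00022). The NRF2 partner Mafk rose by 0.21 in RW-SS (adjusted p = 0.00032) and Mafg by 0.30 in DIO-SS (7.32e-05).

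Gsk3b, a kinase that promotes NRF2 degradation, fell in RW-SS (-0.38, adjusted p = 2.38e-07), and its sidestream effects differed between diets by 0.30 (0.00159). Bach1, a repressor that competes for the same elements, rose in all 4 smoke groups, by 0.31 in RW-MS (adjusted p = 0.000617), 0.22 in RW-SS (0.00729), 0.23 in DIO-MS (0.0318) and 0.27 in DIO-SS (0.000689). The DIO-MS call was lost without DIO-SC 1, 3 or 5 (adjusted p = 0.062, 0.0525 and 0.0795) or DIO-MS 5 or 6 (0.154 and 0.0898). With the mean of its probe sets Bach1 passed in none of the 4, and the sign turned in RW-SS (-0.12) and DIO-SS (-0.03). Nfe2l1, a relative of NRF2, was higher in DIO mice in air (0.19, adjusted p = 6.47e-05), and under mainstream (0.21, 0.000109) and sidestream smoke (0.23, 4.41e-06).

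Of 18 tested genes that make, use or clear glutathione, 1 rose and 1 fell in RW-MS, 1 rose and 4 fell in RW-SS, 1 rose and 0 fell in DIO-MS, and 2 rose and 1 fell in DIO-SS. The share called was near that of all genes in RW-SS (24.6%) and below it in DIO-SS (31.8%). All genes were called at 6.86% in RW-MS and 4.55% in DIO-MS. Oplah, which recovers glutamate from oxoproline, was the riser in each RW comparison (0.27, adjusted p = 0.00359, and 0.34, 9.1e-05) and rose in DIO-SS by 0.37 (1.87e-05). Its rise in DIO-MS (0.22, adjusted p = 0.0443) was lost without DIO-SC 1, 2, 4, 5 or 8 or without DIO-MS 1, 5 or 6, each left out alone (adjusted p up to 0.166). Glrx, a glutaredoxin, fell in RW-MS (-0.24, adjusted p = 0.00507) and RW-SS (-0.29, 0.000207).

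Of the thioredoxins, peroxiredoxins and other peroxide enzymes, 14 were tested. In RW-MS 1 was higher (6.86% of all genes called), and in RW-SS 1 was higher and 1 lower (24.6%). In DIO-MS 0 were called (4.55%), and in DIO-SS 3 were higher (31.8%). The DIO-SS share was near the 23.0% of all genes called higher, and the list's median there was 0.05 against 0.04 for all genes. Cat, which encodes catalase, was higher in DIO-SC than in RW-SC by 0.54 (adjusted p = 1.11e-09), rose in RW-SS by 0.23 (0.0025), and its sidestream effects differed by -0.34 between diets (0.00194). Txnip, an inhibitor of thioredoxin, was higher in DIO mice under mainstream (0.94, adjusted p = 0.000266) and sidestream smoke (1.14, 2.42e-06).

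A list of 11 tested genes covered the supply of NADPH, the reducing power of these enzymes, and the pentose phosphate pathway. Of these genes, 1 fell in RW-MS, 1 rose and 3 fell in RW-SS, 1 rose in DIO-MS and 1 in DIO-SS. Of all genes, 6.86%, 24.6%, 4.55% and 31.8% were called in these comparisons. In air 6 of the 11 were lower in DIO mice, beside 20.3% of all genes called. The list's median in air was -0.15 against -0.02 for all genes. Fat cell markers had a median of -1.30 in the same comparison, with 1 of 5 called lower. The list was also fitted with the fat cell mean as a covariate, and what that fit gave for it is not reported here. Idh1 rose by 0.54 in RW-SS (adjusted p = 3.86e-08) and by 0.27 and 0.20 in DIO-MS and DIO-SS (0.0126 and 0.0119), and its sidestream effects differed by -0.34 (0.00453). Pgd, of the pentose phosphate pathway, fell in RW-SS (-0.43, adjusted p = 0.0137). Tkt, of the same pathway, was lower in DIO-SC than in RW-SC (-1.28, adjusted p = 0.0102).

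Detoxifying enzymes and exporters (17 tested) gave 1 fall in RW-MS, 1 rise and 1 fall in RW-SS, 0 calls in DIO-MS and 5 rises in DIO-SS. The rises in DIO-SS stand beside 31.8% of all genes called and 23.0% called higher. The share called in RW-SS was below the 24.6% of all genes. In RW-MS 6.86% and in DIO-MS 4.55% of all genes were called. The DIO-SS risers included Gsta4, a conjugating enzyme for lipid aldehydes (0.26, adjusted p = 2.87e-05), Cbr1 (0.19, 0.000389), Cbr3 (0.26, 0.000418) and the exporter Abcg2 (0.23, 0.00186). Gsta4 responded more in DIO than in RW mice, by 0.28 (adjusted p = 0.00156). Ephx1, an epoxide hydrolase, fell in RW-MS (-0.21, adjusted p = 0.0148) and RW-SS (-0.35, 2.13e-05).

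Of 7 tested genes of heme breakdown and iron handling beside Hmox1, 1 rose in RW-MS, 2 rose and 1 fell in RW-SS, 1 rose in DIO-MS and 4 rose in DIO-SS. All genes were called at 6.86%, 24.6%, 4.55% and 31.8% in these comparisons. The iron exporter Slc40a1 rose by 0.43 in RW-MS (adjusted p = 0.000291) and 0.43 in RW-SS (0.000109), and was higher in DIO-SC than in RW-SC by 0.51 (7.42e-06). Blvrb, a biliverdin reductase, rose in DIO-MS (0.19, adjusted p = 0.0131) and DIO-SS (0.24, 6.68e-05), where Hmox1 did not pass.

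Over the 6 lists and 11 comparisons, 128 results of 49 genes came under the naming rule, and only part of them are given above. After a further quantile normalization 91 of the 128 kept their call and 0 turned sign, and with arrays centred on their medians 126 kept it and 0 turned. With the mean of probe sets 126 had a value, 111 kept their call and 3 turned sign: Bach1 in RW-SS and DIO-SS, and Prdx4 in the sidestream interaction. Endothelial markers rose with the DIO-SS results, 6 of 10 tested, beside 31.8% of all genes called and 23.0% called higher. Their list mean was 8.41 to 8.54 in DIO-SS and 8.26 to 8.40 in DIO-SC. Their part in the DIO-SS results was not tested.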

How the data were processed

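The deposited values are log2 expression levels per probe set, which the authors made with RMA per the submitters' processing notes, without its settings or version. They ran from 2.12 to 14.77, and array medians from 6.20 to 6.24. Precision depends on how many arrays a group has. Probe sets were named by the array annotation (20393 with 1 gene, 691 with several, 1606 not listed), and each gene took its brightest probe set. Genes under 4.90, the lowest 25%, were left out. In R 4.3.3, limma 3.58.1 (lmFit, eBayes, two-sided tests) estimated the 6 group means from the 45 arrays together. The procedure was also run on simulated data in which a gene had the same spread in every group. That run does not cover unequal spreads, such as those of Hmox1 (SD 0.44 in RW-SS, 0.14 in RW-SC). Python 3.11.15 served for motif searches, 100000-resample permutations of member pairs and plots (matplotlib 3.10.9). Members and lists were chosen with earlier results of these data known. Named were all members and the 3 genes nearest to each member that smoke changed. The naming rule for lists took up to 4 genes per list and comparison with the smallest adjusted p under 0.05. It also took genes under that threshold past 0.5 log2 units. The text names only part of the list genes that met this rule. Alternatives were the filter, probe set rule, eBayes settings, array weights, arrays in the fit, rescaling, replicate numbers as a block, 4 marker covariates and arrays left out.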

Additional observations from a re-analysis of the deposited data

Results flagged for a closer look

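The sidestream effect differed between the diets by an interaction test for Hmox1 (-0.68, limma adjusted p = 0.00123) and Gclm (-0.33, adjusted p = 0.0285). Hmox1 rose in RW-SS and was not called in DIO-SS, and Gclm rose in both. Red cell markers moved with the RW-SS arrays, and with their mean as a covariate the interactions were -0.55 (adjusted p = 0.0162) and -0.17 (adjusted p = 0.275). Since the red cell means of RW-SS and RW-SC did not overlap, that fit cannot tell sidestream smoke and red cell content apart.

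Nqo1 was far below the rest of its group on RW-MS 7 (7.84, next lowest 8.21) and on RW-SC 1 (7.77, next lowest 8.09). Chance alone sets about 1 in 20 groups apart in this way, and 60 groups of member levels were checked.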

How the results depend on the processing

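Of 99 gene results (9 members in 11 comparisons), 22 were called, and 12 of these kept their call in up to 17 other settings and with each array left out. With array weights the counts of members called were 3 in RW-MS, 1 in DIO-MS, 0 in RW-SS against RW-MS, 1 in DIO-SS against DIO-MS and 1 for the mainstream interaction. Of all genes, array weights called 9.64%, 7.68%, 4.72%, 21.1% and 0.516% in these comparisons. A further quantile normalization gave 3 members in RW-MS and 1 in DIO-SS. The mean of probe sets gave 1 in DIO-MS, turned Txnrd1 in DIO-SS to -0.042 and the sidestream interaction of Srxn1 from 0.14 to -0.14 (adjusted p = 0.0185). In RW-SS against RW-MS, no filter gave 1, and only the groups compared, the red cell covariate and leaving out RW-SS 2 and 4 gave 0. Only the groups compared gave 1 for the mainstream interaction, and the red cell covariate and leaving out RW-SS 2 and 4 gave 1 for the sidestream interaction. The cause of these changes was not tested.

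With each array left out in turn, the counts ranged from 1 to 2 in RW-MS, 4 to 5 in RW-SS, 0 to 0 in DIO-MS, 3 to 4 in DIO-SS, 2 to 3 for the diet in air, 2 to 4 and 4 to 4 for the diet under mainstream and sidestream smoke, 0 to 2 and 0 to 1 between the smokes in RW and DIO mice, and 0 to 0 and 1 to 3 for the mainstream and sidestream interactions. RW-MS reached 2 without RW-MS 7.

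Arrays with the same replicate number did not deviate together (mean correlation -0.06 to 0.11 for the numbers of the titles, and 4 of 45 arrays correlated best with their own number). With the number of the title as a replicate block, 1 member in place of 2 was called in RW-SS against RW-MS.

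Over all genes, only the groups compared gave 4 calls in place of 541 in RW-SS against RW-MS, 402 for 638 in RW-MS and 456 for 985 for the diet under mainstream smoke. The red cell covariate gave 950 for 2288 in RW-SS, 297 for 638 in RW-MS, 2011 for 3030 for the diet under sidestream smoke and 1692 for 2641 for the sidestream interaction. Array weights gave 714 for 423 in DIO-MS, 1565 for 985 for the diet under mainstream smoke, 1964 for 237 in DIO-SS against DIO-MS and 48 for 21 for the mainstream interaction. DIO-SS against DIO-MS had 97 calls after a further quantile normalization, 90 with the description number as a replicate block and 372 with the atrial covariate. The sidestream interaction had 1607 after a further quantile normalization, DIO-MS 261 with every probe set tested, and RW-MS 380 without RW-MS 2, 6 and 8. A further quantile normalization moved the share of calls that were higher from 41.7% to 52.7% in RW-MS, 47.3% to 61.0% in RW-SS, 80.4% to 70.3% in DIO-MS, 72.3% to 57.5% in DIO-SS, 34.1% to 47.3% for the diet in air, 60.5% to 43.9% for the diet under sidestream smoke, 37.7% to 55.3% and 62.4% to 37.1% between the smokes in RW and DIO mice, and 64.4% to 38.6% for the sidestream interaction. Spearman correlation called 0 member pairs in place of 1, and the longer motif matched 1 member in place of 3.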

Other observations

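The nearest genes over the 45 arrays were found by the root mean square difference of mean-centred log2 levels, among 9294 other genes. These differences stand beside the member's own SD over the arrays, 0.32 for Gclm, 0.29 for Hmox1 and 0.19 for Nqo1. For Srxn1 the nearest stood at 0.09 against an SD of 0.12, so near is relative. Nearest to Gclm were Jak1 (0.15), a cytokine receptor kinase, Gpcpd1 (0.16) and Glul (0.18), which makes glutamine from glutamate. Hmox1 was followed by Mt1, a metallothionein, Ube2o and Cebpb, at 0.20 to 0.21. For Nqo1 they were Selenbp1 (0.11), Naa35 and Clip1 (0.12 each). Nearest to Gclc were Ppp1ca, Hebp1 and Ash2l, to Txnrd1 Ythdf1, Trmt112 and Myg1, and to Srxn1 Metap1, Tmem219 and Ndufs7. Arrays share their groups and tissue makeup, so these are descriptions.

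Within groups, with group means removed, members varied together in few pairs. Of 36 pairs of 9 genes over 45 arrays, 1 passed after Benjamini-Hochberg adjustment of permutation p-values, Nqo1 and Keap1 (Pearson r 0.52, p = 0.00064, adjusted p = 0.023, Spearman rho 0.42, p = 0.00775, adjusted p = 0.139). Without RW-SC 1 and RW-MS 7, r was 0.44. Hmox1 and Gclm had the highest r, 0.57 (p = 0.0209, adjusted p = 0.15, rho 0.41, adjusted p = 0.157), and 0.65 without RW-SS 1 and 7.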
